A study of Homo sapiens with 6 samples.

Results

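The butyrophilin genes BTN1A1, BTN2A1, BTN2A2, BTN3A1, BTN3A2 and BTN3A3 and the gene MR1 were followed through lists of DNA regions bound by N-Myc or by JMJD6. The 7 genes were taken by their symbols from the gene column of the promoter, enhancer and super-enhancer lists, and a gene with no entry was counted as not listed. They are 7 of the 8279 genes named in any of the 6 lists for N-Myc or JMJD6. They are named in 12 of the 10207 regions of those lists. The genes were chosen by this listing, that is by the presence or absence of a peak in the promoter and enhancer lists, so it is given as a description without a test.

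The regions came from ChIP-Seq, in which DNA attached to a protein is pulled down with an antibody and sequenced, in CHP-134 cells, a human neuroblastoma line with amplified MYCN. There were 3 samples with an N-Myc antibody (sc-53993) and 3 with a JMJD6 antibody (ab64575), all from this 1 line, with no treatment named in the labels. Chromatin was fixed with formaldehyde alone for N-Myc, and with DSG followed by formaldehyde for JMJD6, so the protein, the antibody and the cross-linking cannot be told apart when the lists differ. The lists hold positions of peaks found in all 3 replicates, with no height or read count, so no spread between replicates was computable and the depth behind a peak is unknown.

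Butyrophilins are membrane proteins of the immunoglobulin superfamily, most of them encoded in a cluster beside the major histocompatibility complex (MHC), and several regulate T cells. BTN2A1 and BTN3A1 act together in the sensing of phosphoantigens by gamma-delta T cells, and MR1 is an MHC class I-like molecule that presents vitamin B2 metabolites to mucosal-associated invariant T cells. Genes of antigen presentation often carry an X box, bound by the RFX complex, and a Y box, which is a CCAAT box bound by NF-Y, shortly before their start. N-Myc is a transcription factor that binds E-boxes, and JMJD6 is a Jumonji-domain protein described as an arginine demethylase.

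Every JMJD6-bound promoter of these genes held a stretch that resembles an X box-like stretch of MR1, followed by a CCAAT box in either direction. In each peak the stretch is the window of 15 bases closest to that of MR1. Its presence in all 6 thus follows in part from how it was picked. A module written from the half-sites of X and Y boxes was held by 1 of the 6, MR1, from which the stretch was taken. A CCAAT box alone is common: it was present in either direction anywhere in 81 of 117 other JMJD6 promoter peaks (69.2%) and in 48.5% of N-Myc promoter peaks. The stretches are shown because they recur in all 6 genes with a JMJD6 peak, in the non-coding copy BTN2A3P and in a peak within BTN2A1. They were read from GRCh37 on the plus strand, 5′ to 3′, and the capitals mark the 15 bases of the X box-like stretch and then the nearest CCAAT or ATTGG. The BTN3A genes are at chr6:26402421-26402470 (BTN3A1), chr6:26365354-26365403 (BTN3A2) and chr6:26440656-26440705 (BTN3A3). The BTN2A genes are at chr6:26458057-26458107 (BTN2A1), chr6:26383231-26383283 (BTN2A2) and chr6:26421534-26421584 (BTN2A3P). The site within BTN2A1 is intronic, at chr6:26474124-26474173, and MR1, of which 30 bases are shown without the CCAAT box, is at chr1:181003008-181003037.
BTN3A1: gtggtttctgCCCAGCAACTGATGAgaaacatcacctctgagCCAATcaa
BTN3A2: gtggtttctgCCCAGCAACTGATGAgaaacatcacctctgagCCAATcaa
BTN3A3: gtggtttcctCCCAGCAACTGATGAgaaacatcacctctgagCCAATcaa
BTN2A1: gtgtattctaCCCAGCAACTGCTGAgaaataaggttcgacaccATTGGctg
BTN2A2: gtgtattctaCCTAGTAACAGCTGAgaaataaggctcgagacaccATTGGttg
BTN2A3P: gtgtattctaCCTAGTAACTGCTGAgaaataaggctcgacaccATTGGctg
BTN2A1 intron: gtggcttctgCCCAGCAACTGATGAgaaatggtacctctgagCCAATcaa
MR1: ttttttttaaCCTAGCAACTGATGAcactg

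JMJD6 was bound to the promoters of 6 of the 7 genes, namely BTN3A1, BTN3A2, BTN3A3, BTN2A1, BTN2A2 and MR1. A promoter here is 1 kb on each side of a RefSeq start site. Across the 19222 protein-coding autosomal genes of the annotation, 0.635% had a JMJD6-listed promoter. The genes accounted for 8 of the 177 promoters in the JMJD6 list, since BTN2A2 has 3 annotated starts, which is 4.52% of the list. The 3 BTN2A2 promoters overlap and lie over the same peak. BTN1A1, which encodes a milk fat globule protein of the lactating mammary gland, was the member without a JMJD6-listed promoter.

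N-Myc was listed at the promoter of 0 of the 7 genes. Its promoter list held 5114 promoters and 17.8% of protein-coding autosomal genes. At that share, 0 of 7 genes, most of them from 1 family and chosen by this listing, is no result about the members. No member was in the list of promoters bound by both proteins, which named 0.291% of those genes. All 8 promoters of these genes were therefore among the 93 JMJD6 promoters that are not in the list for both proteins. Of all protein-coding autosomal genes, 0.343% had a promoter listed for JMJD6 and not for N-Myc. No super-enhancer named a member, in lists of 9 regions for JMJD6 and 162 for N-Myc that covered 0.078% and 1.32% of the genes.

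The BTN3A genes encode close relatives, of which BTN3A1 binds phosphoantigens through its intracellular B30.2 domain and BTN3A2 lacks that domain. Their peaks were the widest and the narrowest of the set. The BTN3A2 peak spanned 1455 bp (chr6:26364755-26366209) and ranked 29 of 561 JMJD6 peaks by width. The BTN3A1 peak spanned 1118 bp (chr6:26401937-26403054) and ranked 50. The BTN3A3 peak spanned 223 bp (chr6:26440630-26440852) and ranked 518, so that it was narrower than most JMJD6 peaks. All 3 peaks were centred close to the canonical start, at +56 bp for BTN3A2, −7.5 bp for BTN3A1 and +9 bp for BTN3A3, where the annotation places the 5′ untranslated region of at least 1 transcript.

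BTN2A1 encodes the partner of BTN3A1 in phosphoantigen sensing, and BTN2A2 encodes an inhibitor of T cell activation. The BTN2A1 peak spanned 845 bp (chr6:26457523-26458367, rank 87) and the BTN2A2 peak 873 bp (chr6:26382674-26383546, rank 81). Both lay mainly upstream of the gene, with centres at −238 bp and −226 bp from the canonical start. The peak of the non-coding copy BTN2A3P had the same placement, with 1156 bp (chr6:26420768-26421923, rank 44) and a centre at −275.5 bp. The peaks of the BTN2A type thus sat further upstream than those of the BTN3A type.

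The MR1 peak on chromosome 1 spanned 612 bp (chr1:181002724-181003335, rank 185) and was centred at −89.5 bp from the canonical start. The start used for MR1 in the promoter list lies further upstream than the canonical one, near the start of an alternative transcript, and the peak covered the canonical start. The median width over the 6 genes was 859 bp, against 435 bp for all JMJD6 peaks and 536 bp for the 117 JMJD6 promoter peaks that belong to neither a member nor BTN2A3P. The members overlapped the range of those other peaks, whose middle 50% lay between 377 and 735 bp. Each of the 6 peaks covered the canonical start of its gene, and none was in the list of peaks common to both proteins.

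**Figure D1:**
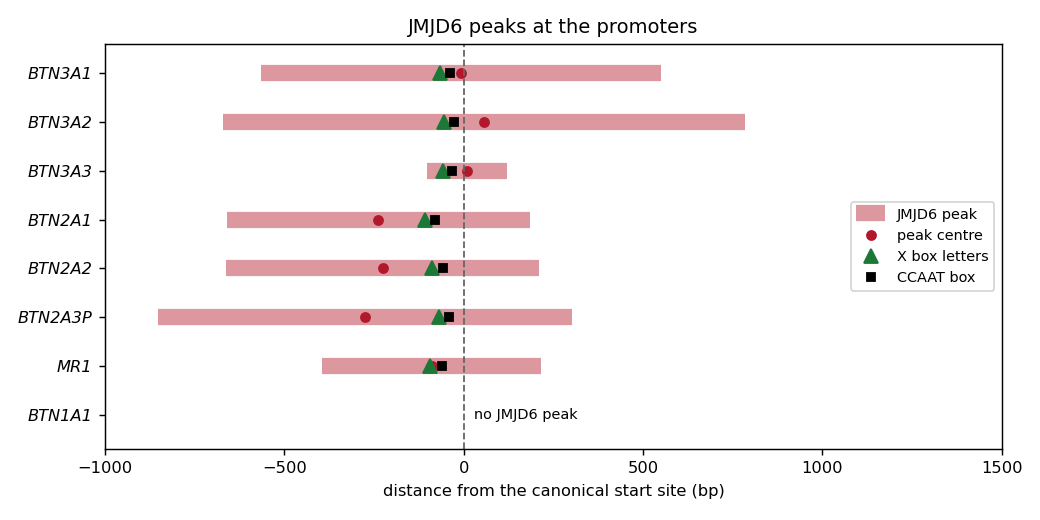
JMJD6 peaks (bars) at the promoters, with the distance from the canonical start in bp on the horizontal axis and 1 gene per row. Dots mark the peak centre, triangles the X box-like stretch and squares the nearest CCAAT box. The stretch begins 62 to 116 bp before the start in the 6 genes, and BTN1A1 has no JMJD6 peak.

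On chromosome 6 the butyrophilin cluster covered 145.3 kb, from the start of BTN3A2 to the end of BTN1A1, and held 7 JMJD6 peaks and 0 N-Myc peaks. These were 20.6% of the 34 JMJD6 peaks on the chromosome, which had 518 N-Myc peaks. In order along the chromosome they lay at BTN3A2, BTN2A2, BTN3A1, BTN2A3P, BTN3A3 and BTN2A1, with 1 further peak of 986 bp in an intron of BTN2A1 (chr6:26473469-26474454). N-Myc peaks lay on both sides of the cluster. Within 250 kb of the butyrophilin genes there were 8 N-Myc peaks, and the promoters of HCG11, HMGN4 and ABT1 were listed for N-Myc.

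The nearest N-Myc peak was 22.6 kb away from the BTN3A2 peak and 40.6 kb away from the BTN2A2 peak. It was 59.8 kb away for BTN3A1, 62.3 kb for BTN2A1 and 79.8 kb for BTN3A3. The peak of MR1 lay 28.7 kb from the nearest N-Myc peak, and 5 N-Myc peaks and 1 JMJD6 peak were within 250 kb of MR1. For BTN1A1, the nearest N-Myc peak began 20.1 kb downstream of the start (chr6:26520644-26521003), and the nearest JMJD6 peak was the one within BTN2A1, 26.1 kb upstream. The 6 JMJD6 peaks thus all lay at least 22.6 kb from an N-Myc peak. The distances of other JMJD6 promoter peaks are not given for comparison, and the genes were chosen by their listing. The distances are therefore a description, and whether they are unusual was not tested.

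**Figure D2:**
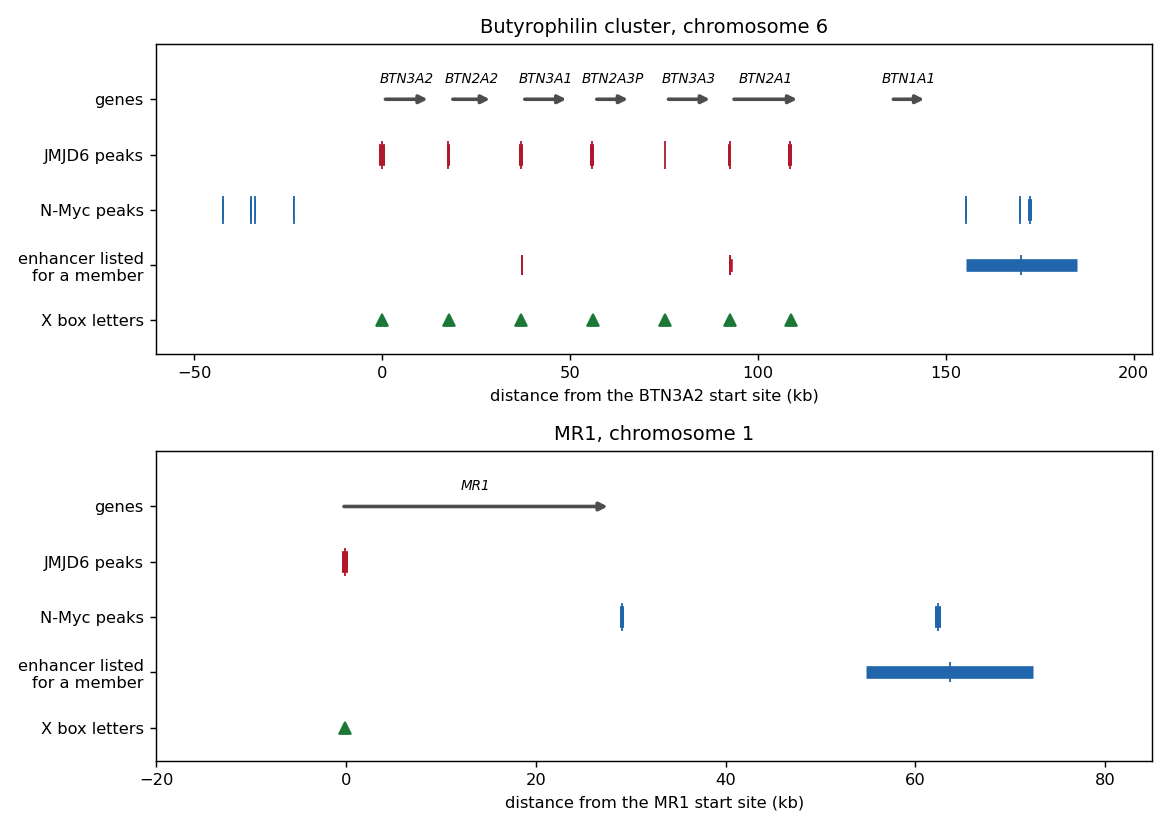
Genes, peaks, enhancers listed for a member (red for JMJD6, blue for N-Myc) and X box-like letters at the butyrophilin cluster (upper panel) and at MR1 (lower panel), with the distance from the BTN3A2 or the MR1 start in kb on the horizontal axis. Ticks mark centres. The 7 JMJD6 peaks of the cluster each coincide with the letters, which were derived from the members' peaks. The N-Myc peaks lie outside the 7 genes.

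Enhancers naming a member were few. For JMJD6 they named BTN2A1, BTN3A1 and BTN3A3, which is 3 of 7 genes, beside 0.9% of protein-coding autosomal genes with a JMJD6-listed enhancer. There were 2 such regions. A region of 197 bp (chr6:26402512-26402708) was placed at +145 bp from BTN3A1 and −38090 bp from BTN3A3 by the distances in the list. A region of 889 bp (chr6:26457695-26458583) was placed at −14 bp from BTN2A1 and +17439 bp from BTN3A3. Both overlapped a promoter listed for JMJD6 and the same peaks. With enhancers over listed promoters left out, 0 members remained.

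For N-Myc, enhancers named BTN1A1 and MR1, beside 31.2% of protein-coding autosomal genes. The region given to BTN1A1 spanned 29594 bp (chr6:26520787-26550380), held 3 N-Myc peaks and lay 34134 bp from the BTN1A1 start, over the promoters of HCG11 and HMGN4. The region given to MR1 spanned 17631 bp (chr1:181057921-181075551), held 1 N-Myc peak and lay 63597 bp from the MR1 start in the list. Neither region held a JMJD6 peak. MR1 was thus the 1 member named for both proteins, for JMJD6 at its promoter and for N-Myc at a distant enhancer.

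The members' peaks were poor in G and C for promoter peaks. GC content was 39.0% for BTN3A2, 39.0% for BTN3A3, 41.1% for BTN3A1, 41.9% for BTN2A2, 43.6% for MR1 and 49.8% for BTN2A1. The median of 41.5% compared with 56.9% in the other 117 JMJD6 promoter peaks and 58.3% in the 3550 N-Myc promoter peaks. The ranges overlapped, and 23 of the 117 (19.7%) were at or below the highest member. The CpG ratio, which is the number of CpG dinucleotides over that expected from the bases, ran from 0.13 for BTN3A3 to 0.38 for BTN2A2, with a median of 0.30. It was 0.69 in the other JMJD6 promoter peaks, 22 of which (18.8%) were at or below the highest member, and 0.73 in N-Myc promoter peaks.

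**Figure D3:**
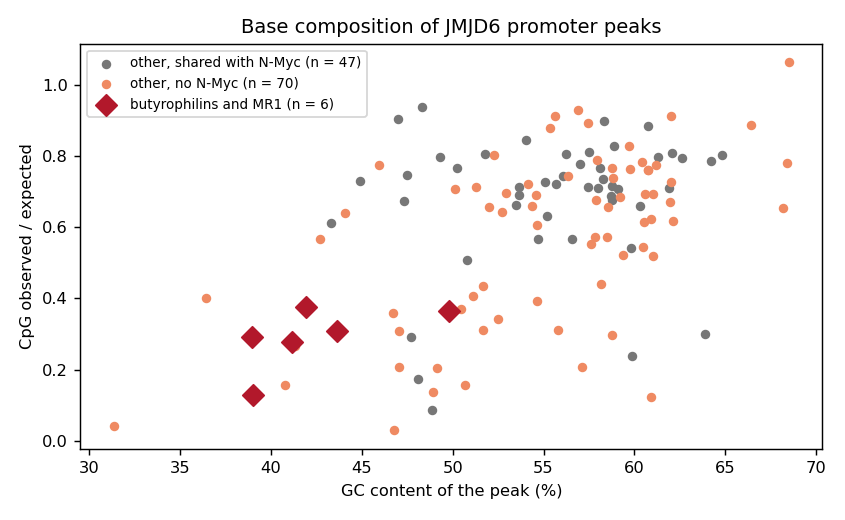
GC content in percent (horizontal axis) against the ratio of observed to expected CpG (vertical axis) for each JMJD6 promoter peak. The 6 members (diamonds) lie at 39.0% to 49.8% GC and ratios of 0.13 to 0.38, in the lower left, where some other peaks also lie.

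The X box-like stretch of MR1, CCTAGCAACTGATGA, was taken as the reference, and differences are given as the base of MR1, the position counted from 1 at the first of the 15 bases, and the base of the other gene. BTN3A1, BTN3A2 and BTN3A3 each differed by 1 base, T3C, as did the site within BTN2A1. BTN2A1 differed by T3C and A12C, and BTN2A3P by C6T and A12C. BTN2A2 was the most distant, with C6T, T10A and A12C. Over the printed 50 bases BTN3A1 and BTN3A2 were identical, BTN3A3 differed from them at 2 positions and the site within BTN2A1 at 5.

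The stretch lay in a narrow range before each gene. The 15 bases are intergenic in the annotation for the butyrophilins, and for MR1 they reach into the first exon of an alternative transcript. Relative to the canonical start, its first base lay at −62 bp in BTN3A2, −66 in BTN3A3, −72 in BTN3A1, −77 in BTN2A3P, −95 in BTN2A2, −101 in MR1 and −116 in BTN2A1. The CCAAT box followed 32 bases after the first base of the stretch in the 3 BTN3A genes. In the BTN2A genes it read ATTGG, at 33 bases in BTN2A1 and BTN2A3P and at 35 in BTN2A2, with a CCAAT in the other direction at 57, 57 and 59 bases. In MR1 it read ATTGG at 39 bases. The centre of the stretch was 4.5 bp from the peak centre in MR1 and up to 138 bp away in the others, with a median of 89.5 bp.

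The butyrophilins are a gene family, and their promoters as a whole were more alike within the BTN3A and the BTN2A type than between the types. Over the 300 bases around the start (250 before and 50 after), the BTN3A genes were 75.9% to 82.6% identical to each other, and the BTN2A genes with BTN2A3P were 68.1% to 71.8%. BTN2A and BTN3A promoters were 47.5% to 49.7% identical. MR1 was 49.4% to 54.6% identical to the butyrophilins. The alignments allowed gaps, and no identity between unrelated promoters is given for comparison. The values near 50% are therefore not read as relatedness, nor are the small differences among them. The stretch is thus shared between promoters with no more than this overall likeness.

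The letters shared by the 6 genes were CCNAGNAACNGNTGA, with 11 fixed bases of 15, and were searched on both strands. Because they were derived from the 6 members, the members hold them by construction. BTN2A3P and the peak within BTN2A1 were not used to derive them and held them too, but they are close copies of sequences that were used. Over the printed bases BTN2A3P differed from BTN2A1 at 3 of 51, and the site within BTN2A1 from BTN3A1 at 5 of 50. They are therefore no independent check of the letters. Of the other 117 JMJD6 promoter peaks, 4 held the letters (3.42%, 95% interval 0.939% to 8.52%), all 4 among the 70 without N-Myc and 0 among the 47 shared with N-Myc (upper limit 7.55%). They belonged to ZNF672, to ZNF365 with LOC283045, to APOC1P1 and to HLA-DMB, a gene of MHC class II antigen loading whose promoter is known for an X box. A CCAAT box within 60 bases of the letters, as in the 6 members, was present in 2 of the 117 (1.71%, 95% interval 0.208% to 6.04%), and not at ZNF672 or HLA-DMB. None of the 3550 N-Myc promoter peaks (upper limit 0.104%) or of all 10172 N-Myc peaks (upper limit 0.0363%) held them.

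In the RefSeq promoter windows of 300 bases (GRCh38.p14) the letters occurred in 15 of 35116, or 0.0427%. Windows were matched for 5 of the 7 genes, and the letters were in the window of BTN2A1 and of BTN3A3, in 1 of the 2 windows of BTN3A2 and of MR1, and not in that of BTN1A1. In the nuclear GRCh37 sequence the letters occurred 1084 times, and 14 of these (1.29%) lay in a JMJD6 peak and 0 in an N-Myc peak. In the butyrophilin cluster there were 7 occurrences, all 7 in a JMJD6 peak, and the 1 occurrence in MR1 was in its peak. These loci thus held 8 of the 14 occurrences under JMJD6 peaks. Those of the 6 members lay in a peak by construction, because the letters were derived from these peaks. The others, at BTN2A3P and within BTN2A1, are close copies of member sequences, so the count is a description only. Most occurrences elsewhere had no JMJD6 peak, so the letters alone did not mark the JMJD6-listed sites.

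**Figure D4:**
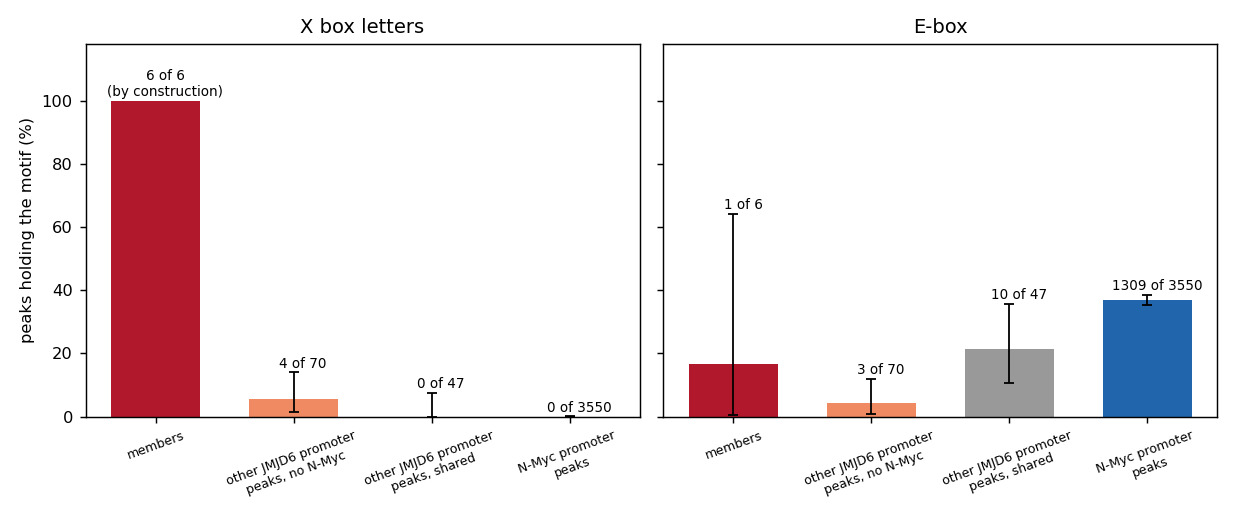
Share of peaks in percent (vertical axis) that hold the X box-like letters (left) or the E-box CACGTG (right), for the members, other JMJD6 promoter peaks without or shared with N-Myc, and N-Myc promoter peaks. Bars carry exact 95% intervals, left out where the members hold the letters by construction. The letters occur in 4 of 70, 0 of 47 and 0 of 3550 of the other classes, and the E-box in 3 of 70, 10 of 47 and 1309 of 3550.

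Other definitions of the stretch gave different shares. A window with at most 3 mismatches to MR1, a number set by the most distant member, was found in 16 of the 117 other JMJD6 promoter peaks (13.7%) and in 28 of the 3550 N-Myc promoter peaks (0.789%). A module of GCAAC, then TGANG, then ATTGG at set distances, written from the half-sites of X and Y boxes, was held by 1 of the 6 members, MR1. It was held by 6 of the 117 other JMJD6 promoter peaks (5.13%) and by 3 of the 3550 N-Myc promoter peaks (0.0845%). Without GCAAC, the module of TGANG and ATTGG was again held by 1 of the 6 members, MR1, and by 26 of the 117 other JMJD6 promoter peaks (22.2%), a higher share than among the members. The butyrophilins did not meet either module as written. Within 1 kb of the BTN1A1 start the best window had 4 mismatches to MR1, and 0 windows held the shared letters.

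**Figure D5:**
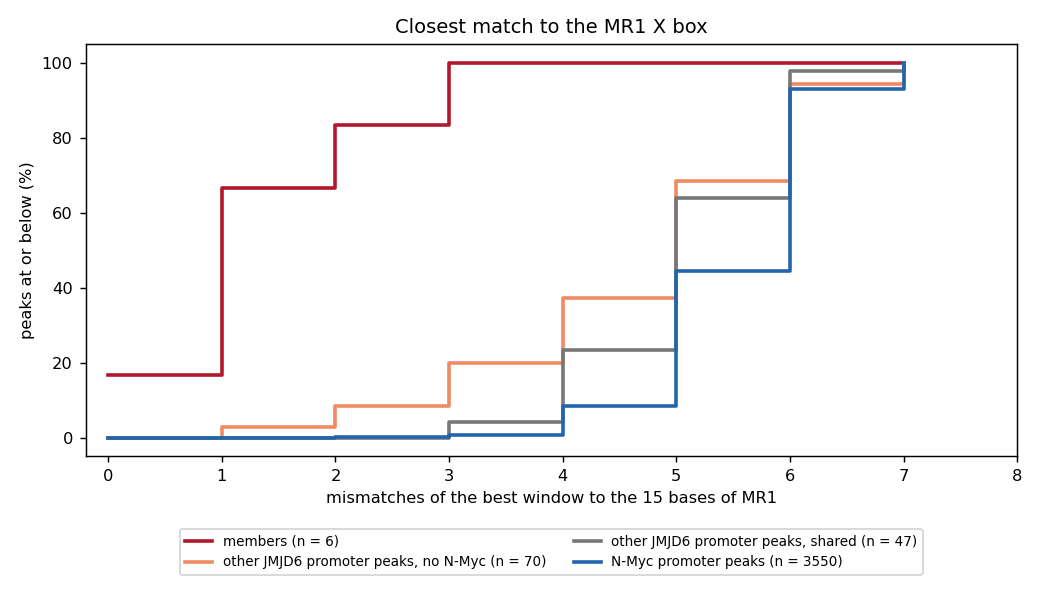
Cumulative share of peaks in percent (vertical axis) whose best window has at most the given number of mismatches to the 15 bases of MR1 (horizontal axis). All 6 members are reached at 3 mismatches, where other JMJD6 promoter peaks without N-Myc are at 14 of 70 and N-Myc promoter peaks at 0.789%.

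The canonical E-box CACGTG, the best known site of Myc proteins, was present in 1 of the 6 members' peaks, that of BTN3A2. It was present in 3 of the 70 other JMJD6 promoter peaks without N-Myc (4.29%), in 10 of the 47 shared with N-Myc (21.3%, 95% interval 10.7% to 35.7%) and in 1309 of the 3550 N-Myc promoter peaks (36.9%, 35.3% to 38.5%). RefSeq promoter windows held it in 7.26% of cases, but at 300 bases they are shorter than most of these peaks. Median widths were 859 bp for the members and 452 bp for N-Myc promoter peaks, so the shares were not matched for length. The looser CANNTG was in all 6 members' peaks, as it was in 80.3% of other JMJD6 promoter peaks. BTN3A2 therefore carried the E-box without a listed N-Myc peak.

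Reads of 75 bases from related genes can be placed on the wrong copy. Of the 4682 stretches of 75 bases in the 6 peaks, 99.4% occurred once in the reference. BTN2A2 had 771 of 799 such stretches, and the peaks of BTN3A1, BTN3A2, BTN3A3, BTN2A1 and MR1 had all of theirs. Over all JMJD6 peaks, 368 of 561 (65.6%) were made up of stretches that occur once. The identical 50 bases of BTN3A1 and BTN3A2 are thus distinguished by the flanking bases at the read length used.

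The other genes of the pathway were taken from lists made by function. Their counts stand beside the 0.635% of protein-coding autosomal genes with a JMJD6-listed promoter, so a count of 0 in a short list is no result about it. For N-Myc the shares were 17.8% for promoters and 31.2% for enhancers. Among 8 butyrophilin-like genes, of which 7 were annotated, BTN2A3P was the 1 with a JMJD6-listed promoter, and 0 had an N-Myc-listed one. Among 14 MHC class I-like relatives of MR1, such as the CD1 genes and MICA, 0 were listed in any class. The 8 genes of the B7 family of T cell costimulators had 0 listed promoters, and ICOSLG was named in an N-Myc enhancer.

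Of the 6 MR1 partners in folding and loading, B2M, the light chain of MHC class I molecules and of MR1, had a JMJD6 promoter peak of 752 bp (chr15:45003141-45003892). It did not hold the shared letters, and its best window had 5 mismatches to MR1. TAPBPL and CALR, a peptide-loading factor and a chaperone, had N-Myc-listed promoters. Of the 9 X box and Y box factors and coactivators, RFX5, a subunit of the RFX complex, was listed for both proteins, with a shared peak of 1483 bp. The NF-Y subunit genes NFYA, NFYB and NFYC had N-Myc-listed promoters, and RFXAP was named in an N-Myc super-enhancer. CIITA and NLRC5, the coactivators of MHC genes, were in no list.

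Of the 10 genes of the phosphoantigen pathway and BTN3A1 partners, 0 had a JMJD6-listed promoter. An N-Myc-listed promoter was found for 3 of the 10, beside 17.8% of protein-coding autosomal genes. They included HMGCS1 and MVK, enzymes of the mevalonate pathway, while other enzymes of that pathway were in no list. The most frequent listing among the members, a JMJD6 promoter with a JMJD6 enhancer and nothing else, was that of BTN2A1, BTN3A1 and BTN3A3. It was shared by 15 other genes of the 8279. The 6 whose JMJD6 peak was closest in width to the members' median were C8orf44-SGK3, VCPIP1, HNRNPUL2, RAB4B, EPS15 and TNFAIP8, with widths from 657 to 975 bp. The peaks of these 6 did not hold the shared letters, although that of RAB4B held the full module that starts with GCAAC and had 3 mismatches to MR1, as many as BTN2A2. Among the rest of the 15, ZNF672 had a peak with the shared letters, and the best window of ZNF429 had 2 mismatches.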

How the data were processed

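ChIP-Seq of N-Myc and JMJD6 in CHP-134 cells was represented by 12 lists. The deposited values are positions in bp (GRCh37/hg19), with gene symbols, and hold no score, count or coverage. The authors aligned reads with BWA, used SAMtools and bedtools, called peaks with MACS2 (2.1.1.20160309) against input, and kept peaks found in all 3 replicates at a q-value maximum of 0.05. Promoters were 1 kb on each side of RefSeq starts, enhancers came from ROSE on H3K27ac, and nearest genes from GREAT.

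Peaks were joined to regions by 1 bp of overlap. Starts are Ensembl canonical starts of GENCODE 44. Motifs were searched on both strands with Python 3.11.15 and pysam 0.24.0, and the scripts were tested on simulated sequence. The module was GCAAC, then a TGANG that starts 4 to 14 bases later, then an ATTGG within 12 to 35 bases. CCAAT boxes were sought up to 60 bases from the X box-like stretch. Intervals are exact binomial (Clopper-Pearson, SciPy 1.17.1). No test was made, because the lists have no value per sample and the members are related genes chosen by their listing. Genes named are the 7 members, pathway genes with a listing (1 is not reported here), and genes with the members' commonest listing. BTN2A3P, the neighbours, the peak within BTN2A1 and the peaks holding the letters were named after their values were seen. The members, gene lists and motifs were chosen with earlier results of these data known, and the shared letters were derived from the members. Sequences were read from GRCh37. Promoter windows are RefSeq, GRCh38.p14.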

Additional observations from a re-analysis of the deposited data

How the results depend on the processing

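Of 16 alternatives, 12 left the value unchanged or close to it. With promoters drawn from GENCODE starts (1 kb or 250 bp on each side), or with at least 50% of the peak required inside the promoter, 6 members had a JMJD6 promoter. With JMJD6 peaks wider than the median only, 5 did, since the 223 bp peak of BTN3A3 dropped out. N-Myc promoters stayed at 0 members under all its alternatives, 5 kb windows included. Merging overlapping promoters gave 4.96% of 121. With enhancers over listed promoters left out, members with a JMJD6 enhancer went from 3 to 0. Reading the E-box as CANNTG raised the count from 1 to 6 peaks, and stretches of 50 in place of 75 bases lowered the share occurring once from 99.4% to 97.1%. Within 100 bp of the peak centre, an alternative chosen after seeing the data, 3 of the 6 peaks held the shared letters.

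No paired analysis was possible because the lists have no column per sample, and for the same reason no replicate was left out. A stricter peak threshold was imitated by width alone. A listing required a peak in all 3 replicates, so absence from a list is not absence of binding. Intervals cover counting error only.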
